A study of Bos taurus with 18 samples.

Results

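The genes described here encode enzymes that make nitric oxide and superoxide in cells of the bovine preovulatory follicle: the nitric oxide synthases NOS2 and NOS3, and CYBB and CYBA, the membrane subunits of the phagocyte NADPH oxidase. They were taken as all probe sets whose symbol in the array's annotation is NOS2, NOS3, CYBB or CYBA, which gives 4 of the 9155 genes on the array and 8 of the 24016 probe sets tested (4 for NOS2, 2 for CYBB and 1 each for NOS3 and CYBA). The study set the granulosa and the theca of the dominant follicle against each other across the LH surge, the hormone pulse that triggers ovulation. Each of 6 cows gave 1 dominant follicle, cows A, B and C at 22 h after GnRH, which induces the LH surge, and cows D, F and G before the surge. From each follicle RNA of theca cells, of antral granulosa aspirated from the cavity and of membrane-associated granulosa (membrane granulosa below) went on separate Affymetrix expression arrays, so the 18 arrays form 6 groups of 3. No group carries a transgene or a deletion, and apart from GnRH in the cows after LH the labels name no treatment.

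Nitric oxide synthases convert L-arginine into citrulline and the gas nitric oxide, with tetrahydrobiopterin as cofactor. NOS2 is the inducible, calcium-independent form known from activated macrophages, and NOS3 the calcium- and calmodulin-regulated form of endothelium. Nitric oxide binds soluble guanylate cyclase, which then makes the nucleotide cyclic GMP. CYBB (gp91phox) and CYBA (p22phox) together form the cytochrome that passes electrons from NADPH to oxygen, giving superoxide, once cytosolic subunits and the GTPase RAC have joined them. CYBA also pairs with other oxidases, such as NOX4.

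Values are log2 signals per probe set as the authors made them, so a difference of 1 is a 2-fold change in signal, and signals of different probe sets are not set against each other. The lowest 33.3% of probe sets by mean over all arrays lie under 4.62, and where all arrays of a group are under this limit, only a bound on the difference is given. Over all arrays values ran between 2.29 and 14.9, array medians lay between 5.74 and 5.86, and the correlation between arrays of a group was 0.970 to 0.990. The number of arrays, 3 per group, limits the precision. In bulk samples like these, fewer cells of a type and less RNA per cell cannot be told apart. NOS2 was picked from these same arrays, on its lower signal in granulosa after LH, and CYBB was proposed beside it. For that reason differences after LH in granulosa, and differences of theca from membrane granulosa, are given for the 4 genes as descriptions with a standard error and no p-value. Which values chose CYBB, NOS3 and CYBA is not recorded. The LH difference in theca was taken as not used in the choice. So was the comparison of antral with membrane granulosa, although it shares the granulosa arrays on which NOS2 was picked. Both carry p-values, adjusted over all 24016 probe sets, that rest on this assumption. Those of antral against membrane granulosa are therefore not independent of the choice.

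NOS2 had the highest granulosa signals before LH and low signals in every population 22 h after GnRH. On its brightest probe set, Bt.8479.1.A1_at, membrane granulosa read 5.20, 6.57 and 5.27 in cows A, B and C after LH, against 10.93, 11.51 and 11.38 in cows D, F and G before LH. Antral granulosa read 5.65, 5.74 and 5.36 after LH and 12.04, 11.92 and 11.16 before LH. Theca read 5.73, 4.92 and 6.36 after LH and 8.31, 8.33 and 7.60 before LH. In each population every array after LH was below every array before LH, and all 18 arrays were above 4.62. Of all probe sets, 19.7% in membrane granulosa, 19.4% in antral granulosa and 10.4% in theca were lower without overlap in this way. After minus before LH, the difference was -5.59 ± 0.39 (SE) in membrane granulosa, a 48.3-fold lower signal, and -6.12 ± 0.39 in antral granulosa, a 69.8-fold lower signal.

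In theca, which was taken as not used in the choice of NOS2, its signal fell as well. It averaged 5.67 ± 0.72 after LH and 8.08 ± 0.42 before LH (SD, n = 3 cows each), a difference of -2.40 ± 0.39 (SE), or 5.30-fold lower, with an adjusted p of 0.00192 by limma. Of all probe sets, 2.12% were called lower in theca after LH. Every alternative setting kept this call, with differences between -2.75 and -2.03 and adjusted p between 0.00137 and 0.0313. The mean over granulosa markers was also lower in the theca samples after LH. The mean log2 signal over the 10 granulosa markers was 7.55 to 7.58 in theca after LH, against 9.90, 9.61 and 8.76 in cows D, F and G before LH, and cow G had both the lowest marker level and the lowest NOS2 signal of the 3. Of these markers, 4 of 10 were called lower in theca after LH, among them CYP19A1, the aromatase of oestradiol synthesis. Over all genes 2.85% were called lower. FSHR, INHA, AMH, FOXL2, NR5A2 and GJA1 were not called, and NR5A2 differed by 0.20. In membrane granulosa itself the marker mean was 8.25 to 9.30 after LH and 11.43 to 11.61 before LH. The mean thus fell there as well, and is no count of granulosa cells. The part of granulosa cells in the NOS2 difference in theca was not tested.

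**Figure D1:**
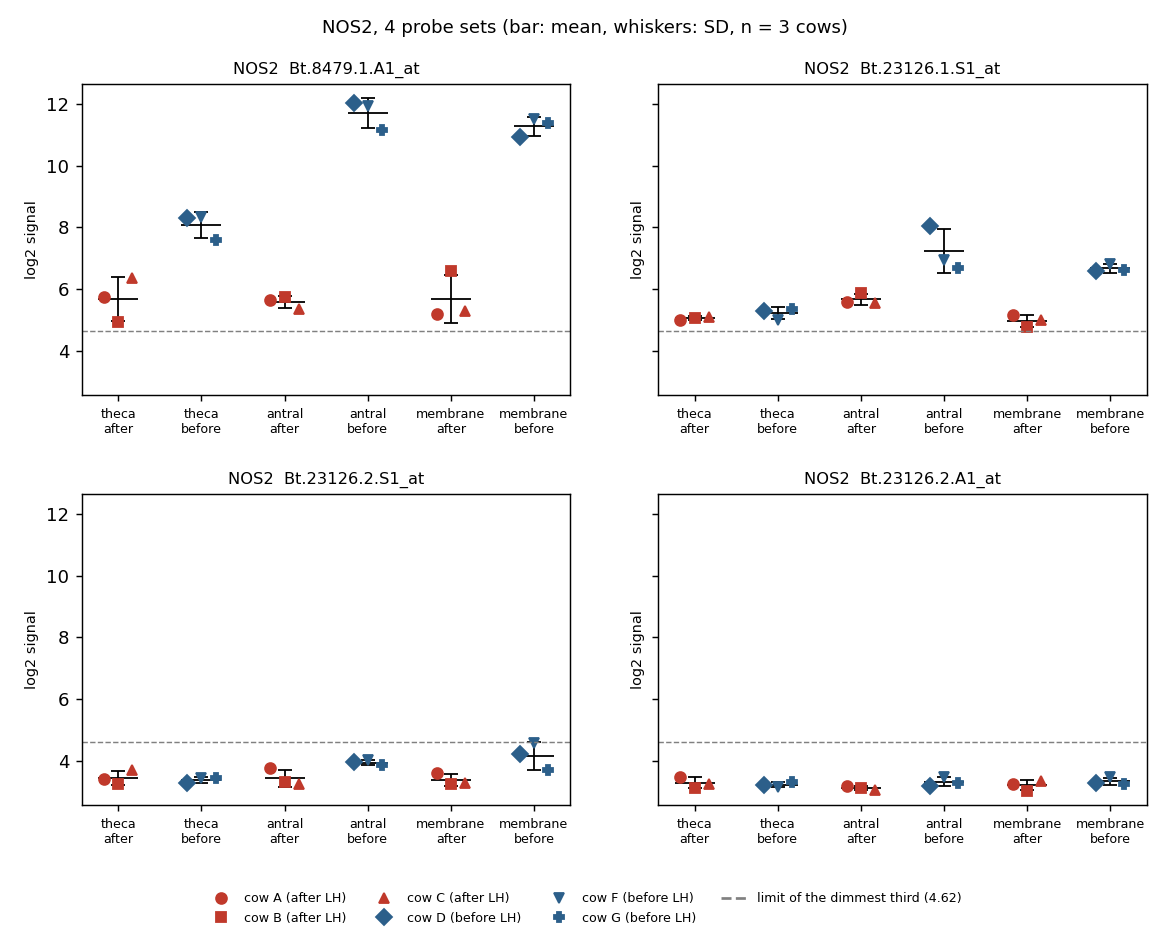
Log2 signal of the 4 NOS2 probe sets on each of the 18 arrays, by cell population (theca, antral granulosa, membrane granulosa) and time (after LH left of before LH); symbols are cows, bars the group mean, whiskers the SD (n = 3), and the dashed line the limit of 4.62. On Bt.8479.1.A1_at all 9 arrays after LH lie between 4.92 and 6.57, while the probe sets of the lower panels stay under the limit on every array.

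Read down the 6 groups, the Bt.8479.1.A1_at signal was highest in antral granulosa before LH (mean 11.71) and membrane granulosa before LH (11.27), whose arrays overlapped. Theca before LH came next at 8.08 and overlapped with neither neighbour in this order. Membrane granulosa after LH (5.68), theca after LH (5.67) and antral granulosa after LH (5.58) overlapped. Within cows, theca before LH read 2.62, 3.18 and 3.79 below membrane granulosa in cows D, F and G. The fitted difference before LH was -3.20 ± 0.40 (SE), and after LH it was -0.01 ± 0.40, with cow B at -1.65 and cow C at 1.09. Without cow B this last value was 0.81. Antral and membrane granulosa did not pass the test before LH (0.43 ± 0.40, adjusted p = 0.636 by limma) or after LH (-0.10 ± 0.40, adjusted p = 0.902).

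The other NOS2 probe sets gave smaller differences or none. Bt.23126.1.S1_at read 5.16, 4.77 and 4.98 in membrane granulosa after LH, against 6.57, 6.82 and 6.61 before LH. In antral granulosa it read 5.57, 5.86 and 5.55 after LH and 8.03, 6.95 and 6.68 before LH, the 8.03 being cow D. Both granulosa populations were thus lower on every array after LH, as were 19.7% (membrane) and 19.4% (antral) of all probe sets. The differences were -1.70 ± 0.25 (SE) in membrane and -1.56 ± 0.25 in antral granulosa. In theca it read 4.99, 5.06 and 5.10 after LH and 5.29, 5.0 and 5.36 before LH, with overlapping groups and a difference of -0.17 ± 0.25 (adjusted p = 0.842 by limma). The call in theca therefore rests on Bt.8479.1.A1_at alone.

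Of the dim NOS2 probe sets, Bt.23126.2.S1_at read between 3.23 and 4.56 over the 18 arrays and Bt.23126.2.A1_at between 3.02 and 3.48. Both stayed under 4.62 everywhere, so no size of difference is given for them. Which transcript of NOS2 each probe set reads is not given in the sources used here.

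On Bt.23126.1.S1_at antral granulosa exceeded membrane granulosa of the same cow after LH in 3 of 3 cows, by 0.41, 1.10 and 0.57. The fitted difference of 0.69 ± 0.25 (SE) did not pass the test (adjusted p = 0.126 by limma). Before LH the differences were 1.46, 0.14 and 0.07 in cows D, F and G (0.55 ± 0.25, adjusted p = 0.275). Cow D, which set the value before LH, also had the highest mean over leukocyte markers in antral granulosa, 6.41 against 5.01 to 5.35 on the other 5 antral arrays. The part of these cells in the antral value was not tested.

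NOS3, the endothelial form, was dim in granulosa, where cow C after LH read highest. On its only probe set, Bt.4662.1.S1_at, membrane granulosa read 4.77, 4.69 and 6.34 in cows A, B and C after LH and 4.36, 4.44 and 4.28 before LH. Antral granulosa read 4.52, 4.62 and 5.84 after LH and 4.50, 4.53 and 4.08 before LH, and theca 5.07, 5.02 and 6.61 after LH and 5.07, 5.38 and 4.75 before LH. All 6 granulosa arrays before LH were under the limit, as were cows A and B in antral granulosa after LH. Cow C exceeded the mean of cows A and B by 1.61 in membrane granulosa and 1.57 in theca.

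The LH difference of NOS3 in theca was 0.50 ± 0.47 (SE) and did not pass the test (adjusted p = 0.706 by limma). Without cow C it was -0.03. In granulosa, where the groups before LH were under the limit, the signal after LH was at least 0.64 above it in membrane and 0.37 in antral granulosa on the log2 scale. Without cow C antral granulosa after LH was not above the limit, and membrane granulosa was left with the 4.77 and 4.69 of cows A and B. The mean over endothelial markers in cow C was the highest of the 3 cows after LH in membrane granulosa (5.62). It was the lowest in antral granulosa (4.78) and in theca (7.21). The part of endothelial cells in the NOS3 signal of cow C was not tested. VWF, KDR and TIE1 were under the limit on all granulosa arrays. Within cows, theca exceeded membrane granulosa in NOS3 by 0.29, 0.33 and 0.27 after LH in cows A, B and C, and by at least 0.44 in the mean before LH. Antral and membrane granulosa after LH did not pass the test (adjusted p = 0.206 by limma), and no size is given, as cows A and B were under the limit in antral granulosa. The mean over the 13 endothelial markers measured was 7.21 to 7.59 in theca after LH, against 5.0 to 5.62 in membrane granulosa after LH.

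CYBB, the catalytic subunit of the phagocyte oxidase, was lower in granulosa after LH, and lay below its theca level there. On Bt.4558.1.S1_at membrane granulosa read 5.75, 5.98 and 6.12 after LH, against 9.78, 9.06 and 9.68 before LH. Antral granulosa read 5.58, 6.16 and 5.48 after LH, against 8.47, 8.03 and 9.46 before LH. Theca read 6.99, 6.86 and 6.47 after LH and 7.79, 7.21 and 6.78 before LH, so that only the theca groups overlapped. Of all probe sets, 19.7% in membrane and 19.4% in antral granulosa were lower without overlap. The differences after LH were -3.56 ± 0.33 (SE) in membrane granulosa, 11.8-fold lower, and -2.91 ± 0.33 in antral granulosa, 7.53-fold lower. In theca the difference was -0.49 ± 0.33 and did not pass the test (adjusted p = 0.560 by limma).

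Its other probe set, Bt.22430.1.A1_at, gave a like picture. Membrane granulosa read 5.36, 5.71 and 6.02 after LH and 9.79, 8.91 and 9.84 before LH. Antral granulosa read 5.11, 5.41 and 5.31 after LH and 8.08, 8.17 and 9.03 before LH, and theca 6.56, 6.86 and 6.42 after LH and 7.53, 7.58 and 6.40 before LH. The differences after LH were -3.82 ± 0.33, -3.15 ± 0.33 and, in theca, -0.56 ± 0.33 (SE, adjusted p = 0.478 by limma). The probe sets thus differed by less than 1 SE in each population.

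Theca and membrane granulosa stood in opposite order in CYBB at the 2 times. Theca minus membrane granulosa was 0.82 ± 0.31 (SE) on Bt.4558.1.S1_at and 0.92 ± 0.35 on Bt.22430.1.A1_at after LH. Before LH the same differences were -2.25 ± 0.31 and -2.34 ± 0.35. On both probe sets theca was the higher in 3 of 3 cows after LH, by 0.35 to 1.25, and the lower in 3 of 3 cows before LH. In order of level on Bt.4558.1.S1_at, membrane granulosa before LH came first (9.51), overlapping with antral granulosa before LH (8.65). Theca before LH (7.26) did not overlap with antral granulosa before LH and did with theca after LH (6.77). Membrane granulosa (5.95) and antral granulosa (5.74) after LH overlapped with each other and not with theca.

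Antral granulosa was below membrane granulosa in CYBB in 3 of 3 cows before LH on both probe sets, without passing the test. The difference was -0.85 ± 0.31 (SE, adjusted p = 0.177 by limma) on Bt.4558.1.S1_at and -1.08 ± 0.35 (adjusted p = 0.134) on Bt.22430.1.A1_at. Cow G had the smallest difference on the first of these, -0.22, and without cow G the value was -1.17 with an adjusted p of 0.0455. After LH the differences were -0.21 ± 0.31 (adjusted p = 0.716) and -0.42 ± 0.35 (adjusted p = 0.493). Over the 8 probe sets of the 4 genes, limma called 0 between antral and membrane granulosa at either time, with 2 at an unadjusted p under 0.05 after LH and 3 before LH. Of all probe sets, 1.43% were called higher and 1.57% lower after LH, and 0.687% higher and 1.09% lower before LH.

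CYBB is known as a gene of phagocytes, and the leukocyte markers are given beside it. The mean over the 16 leukocyte markers measured was 5.05 to 5.70 in membrane granulosa after LH and 5.25 to 5.77 before LH. In antral granulosa it was 5.04 to 5.35 after LH and 5.01 to 6.41 before LH, with 6 of the 16 under the limit on all arrays after LH and 3 before LH. Of them, CD14, a monocyte receptor, was called higher and PLEK, a platelet and leukocyte protein, lower in membrane granulosa after LH. PLEK was also lower in antral granulosa after LH, by at least 4.48 on the log2 scale (adjusted p = 7.60e-07 by limma). Unlike the marker mean, PLEK before LH was higher in antral (9.11) and membrane granulosa (7.91) than in theca (6.39). PTPRC, the pan-leukocyte phosphatase CD45, read 6.08 to 7.29 after LH and 7.75 to 8.03 before LH in membrane granulosa (difference -1.14 ± 0.41 SE, adjusted p = 0.0637 by limma). ITGAM, a myeloid integrin chain, was under the limit in all 6 groups. In theca the leukocyte mean was 6.06 to 6.76 after LH and 6.20 to 7.01 before LH. The part of these cells in the CYBB differences was not tested.

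CYBA, the partner subunit, was higher in granulosa after LH. On Bt.4140.1.S1_at membrane granulosa read 6.78, 7.36 and 7.03 after LH, against 6.04, 6.25 and 5.70 before LH. Antral granulosa read 6.94, 6.94 and 6.95 after LH, against 6.09, 6.11 and 5.55 before LH. Theca read 7.55, 8.25 and 7.26 after LH and 7.30, 8.30 and 7.95 before LH. Every granulosa array after LH was above every array before LH, by 1.07 ± 0.27 (SE) in membrane and 1.02 ± 0.27 in antral granulosa. Of all probe sets, 14.9% in membrane and 17.2% in antral granulosa were higher without overlap. In contrast, the theca groups overlapped (-0.16 ± 0.27, adjusted p = 0.867 by limma).

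Theca had the highest CYBA levels at both times. Theca minus membrane granulosa was 0.63 ± 0.22 (SE) after LH and 1.85 ± 0.22 before LH, positive in 6 of 6 cows. The order was theca before LH (7.85), theca after LH (7.69), membrane granulosa after LH (7.06) and antral granulosa after LH (6.94), each overlapping with the next, and then, with no overlap, membrane (5.99) and antral granulosa (5.92) before LH. Antral and membrane granulosa did not pass the test before LH (-0.08 ± 0.22, adjusted p = 0.905 by limma) or after LH (-0.12 ± 0.22, adjusted p = 0.780).

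**Figure D2:**
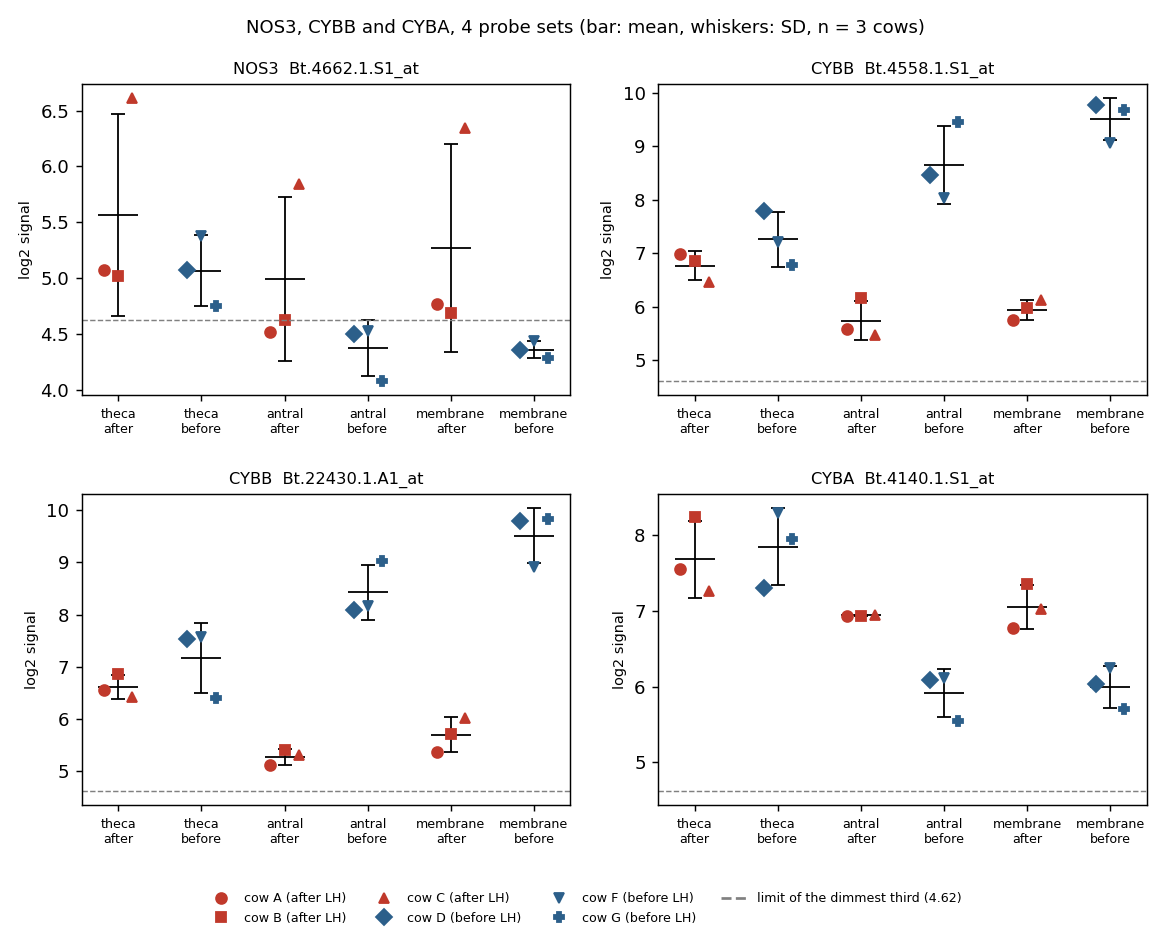
Log2 signal of the NOS3, CYBB and CYBA probe sets on each array, laid out as for NOS2 (bars: mean, whiskers: SD, n = 3 cows, dashed line: limit of 4.62); each panel has its own axis, which does not start at 0. Cow C stands above cows A and B in NOS3 in all 3 populations, CYBB of both granulosa populations lies under theca after LH, and CYBA of granulosa is higher after LH.

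Set side by side, the LH differences separated the populations. On the brightest probe set of each gene, NOS2 differed after LH by -2.40 in theca and -5.59 in membrane granulosa, CYBB by -0.49 and -3.56, and CYBA by -0.16 and 1.07. The LH difference of theca minus that of membrane granulosa, fitted within cows, was 3.19 ± 0.56 (SE) for NOS2, 3.07 ± 0.44 for CYBB on Bt.4558.1.S1_at and -1.23 ± 0.32 for CYBA. The same quantity for antral minus membrane granulosa was -0.53 ± 0.56 for NOS2 and 0.65 ± 0.44 for CYBB. Of all probe sets, 19.7% in membrane granulosa, 19.4% in antral granulosa and 10.4% in theca had every array after LH below every array before LH, and 10.9%, 12.2% and 2.12% were called lower.

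**Figure D3:**
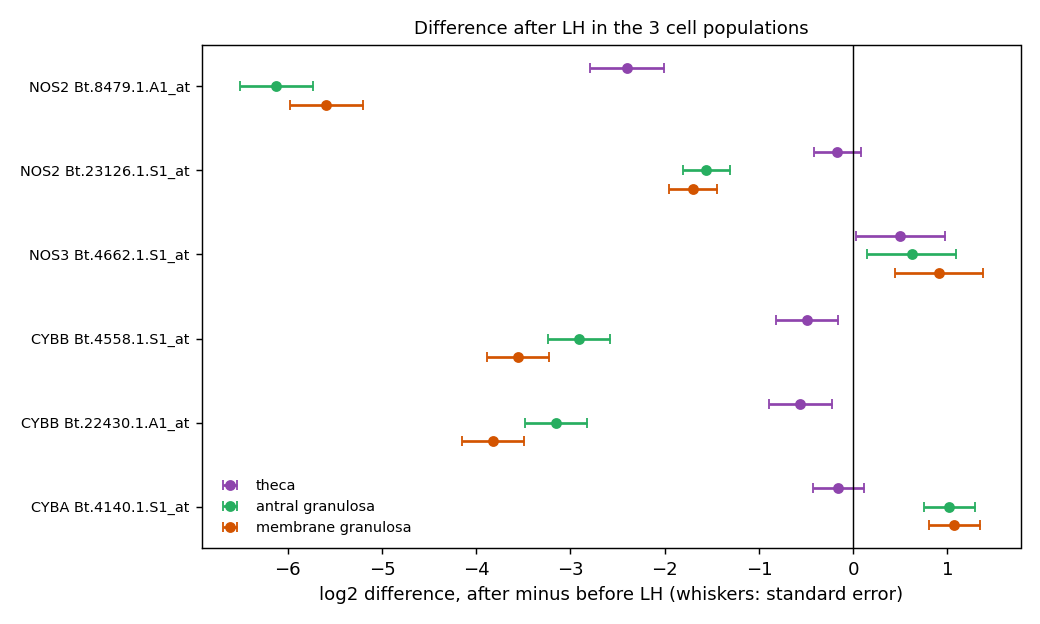
Log2 difference after minus before LH for the 6 probe sets above the limit on some array, in theca, antral granulosa and membrane granulosa (points: limma estimate, whiskers: SE, 3 cows after LH against 3 before LH). NOS2 and CYBB lie left of 0 in both granulosa populations and CYBA right of it, with theca nearer to 0 in each.

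Over the 18 arrays, the genes most like NOS2 on Bt.8479.1.A1_at among 7524 genes were CHST8 (Pearson r = 0.986), PRR15 (0.981), HSD17B1, which converts oestrone to oestradiol (0.977), GPT, an alanine aminotransferase (0.975), and BLVRA, the biliverdin reductase (0.974). Those most like CYBB on Bt.4558.1.S1_at were BTG1 (0.961), CSPG4 (0.954), AFF1 (0.951), OPTN (0.950) and FNDC3B (0.944). NOS2 and CYBB correlated at 0.896, which ranked CYBB 146 for NOS2 and NOS2 88 for CYBB. CYBA correlated at -0.695 with NOS2 and at -0.634 with CYBB, and NOS3 at -0.566 and -0.546. These arrays fall into 6 groups and 3 come from each cow, so the values describe shared group patterns and are given without a test.

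The genes around these enzymes were followed in 5 lists of 75 genes, of which 53 are measured. These lists, like the markers, were chosen with earlier results of these data known. The adjusted p-values of their genes may therefore not be independent of the choice. GCH1, ARG1, PRKG1, NOX4 and NOXA1 were under the limit on all 18 arrays. After LH, 8 of 53 were called higher and 5 lower in membrane granulosa, against 13.1% and 12.9% of all genes. In antral granulosa 9 were higher and 8 lower, against 12.6% and 16.1% of all genes. In theca 2 were higher and 2 lower, against 2.34% and 2.85% of all genes. The 13 calls in membrane granulosa became 8 without cow A, and of the 4 in theca all were lost without cow A, cow B or cow D, 3 without cow C and 2 without cow F or cow G. These shares lie near those of all genes, and the median differences over the 53 were 0.12, -0.03 and -0.07, against -0.03, -0.03 and -0.01 over all genes.

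Of the 12 measured genes that supply cofactor and substrate to nitric oxide synthases, 2 were higher and 1 lower in membrane granulosa after LH. Over all genes the shares were 13.1% and 12.9%. SPR, sepiapterin reductase, which makes the last step to tetrahydrobiopterin, fell in both granulosa populations. Its mean in membrane granulosa was 9.04 after LH and 10.42 before LH (-1.37 ± 0.16 SE, adjusted p = 1.36e-05 by limma), and the difference in antral granulosa was -1.67 ± 0.16 (adjusted p = 1.44e-06). DDAH2, which degrades methylated arginines that inhibit the synthases, rose by 1.50 ± 0.30 in membrane (adjusted p = 0.00171) and 1.83 ± 0.30 in antral granulosa (adjusted p = 0.000267). GCHFR, a regulator of the first enzyme of tetrahydrobiopterin synthesis, was called higher in membrane granulosa (0.91 ± 0.21, adjusted p = 0.00574), where only 1 of 3 arrays before LH was above the limit, so that the size is uncertain. This call was lost without cow A or cow G. In theca PTS, the middle enzyme of that synthesis, fell by 0.58 (adjusted p = 0.0367), a call lost under 6 of 12 alternatives.

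For 4 of these 12 genes the LH difference itself differed between theca and membrane granulosa. Of them, 2 had a higher and 2 a lower LH difference in theca, and over all genes the shares were 5.66% and 5.96%. Over the 53 genes 6 were called, and 3 without cow A. The difference of theca minus membrane granulosa in LH effect was -1.30 ± 0.25 (SE) for GCHFR (adjusted p = 0.00588 by limma), with the dim group just named, -1.23 ± 0.24 for DDAH2 (adjusted p = 0.00716) and 0.91 ± 0.19 for SPR (adjusted p = 0.0106). The SPR call was lost without cow A or cow B, and the DDAH2 call with no replicate block. The fourth, SLC7A1, an arginine transporter named after its values were seen, differed by 0.86 ± 0.24 (adjusted p = 0.0452), a call lost under 9 of 12 alternatives. Also among the 6 were CAV1 and HSP90AA1, which bind the synthases and are described next. On their brightest probe sets they differed by -5.4 ± 0.28 (adjusted p = 3.58e-06 by limma) and -0.62 ± 0.15 (adjusted p = 0.0185). The CAV1 difference was the largest in size of the 6.

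Among 9 measured partners that bind nitric oxide synthases, CAV1 changed most in granulosa. CAV1 is the caveolar coat protein that holds NOS3 inactive. On its brightest probe set it averaged 12.61 after LH and 6.23 before LH in membrane granulosa (6.37 ± 0.24 SE, adjusted p = 2.02e-10 by limma). In antral granulosa it averaged 12.68 after LH and was under the limit on all arrays before LH, at least 8.05 higher on the log2 scale (adjusted p = 5.54e-12). In theca it averaged 11.67 after LH and 10.69 before LH, a rise of 0.98 ± 0.24 (adjusted p = 0.0312) that was lost under 5 of 12 alternatives. HSP90AA1, a chaperone of the synthases, rose by 0.52 ± 0.11 in membrane (adjusted p = 0.00302) and 0.56 ± 0.11 in antral granulosa (adjusted p = 0.00159). Its other probe set was not called in membrane (1.04 ± 0.63, adjusted p = 0.287 by limma) or antral granulosa (0.16 ± 0.63, adjusted p = 0.900). NOSTRIN, which carries NOS3 off the plasma membrane, fell by 0.80 in membrane granulosa (adjusted p = 0.00977), a call lost without cow F, and CALM3, a calmodulin gene, fell by 0.76 in antral granulosa (adjusted p = 0.00227).

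Of 8 measured targets of nitric oxide and cyclic GMP, none rose and 2 fell in membrane granulosa by limma, with 2 rising and 2 falling in antral granulosa. Of all genes, 13.1% rose and 12.9% fell in membrane granulosa, and 12.6% and 16.1% in antral granulosa. GUCY1A1, a subunit of soluble guanylate cyclase, fell by 1.32 in membrane granulosa (adjusted p = 0.00693), a call lost without cow A, and by 1.62 in antral granulosa (adjusted p = 0.00143), with 2 of 3 antral arrays after LH above the limit. Its other probe set differed by -0.61 in membrane and -0.69 in antral granulosa. GUCY1B1, the partner subunit, rose by 1.00 ± 0.27 (SE) in antral granulosa (adjusted p = 0.0139), a call lost without cow A or cow D. ADH5, which removes S-nitrosoglutathione, fell by 0.55 in membrane granulosa (adjusted p = 0.0462), by 0.92 in antral granulosa (adjusted p = 0.00186) and by 0.77 in theca (adjusted p = 0.0292). The calls of ADH5 in membrane granulosa and theca were lost under 6 and 5 of 12 alternatives.

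Calls among the other genes of the oxidase stand beside 13.1% higher and 12.9% lower of all genes in membrane granulosa after LH. Of 10 measured, RAC1, a GTPase of the active complex, was called higher (0.47 ± 0.15 SE, adjusted p = 0.0411 by limma) and POLDIP2, a partner of CYBA, lower (-0.40 ± 0.13, adjusted p = 0.0372) in membrane granulosa after LH. These calls were lost under 6 and 7 of 12 alternatives. On their other probe sets the differences there were 0.71 ± 0.12 for RAC1 (adjusted p = 0.000481 by limma) and -0.56 ± 0.12 for POLDIP2 (adjusted p = 0.00256). POLDIP2 was also lower in antral granulosa (-0.58 ± 0.13, adjusted p = 0.00369). CYBC1, the chaperone that CYBB needs for its stability, differed by -0.19 ± 0.17 in membrane granulosa (adjusted p = 0.486). NCF1, an organiser subunit, was under the limit on all membrane granulosa arrays. In theca NCF4, another cytosolic subunit, was called higher after LH (0.72 ± 0.16, adjusted p = 0.0184), a call lost under 5 of 12 alternatives.

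Of 14 genes that remove superoxide and peroxide, 3 rose in membrane granulosa after LH and none fell by limma, against 13.1% and 12.9% of all genes. PRDX2, a peroxiredoxin that reduces hydrogen peroxide, rose by 1.19 ± 0.14 (SE) in membrane granulosa (adjusted p = 1.66e-05) and 1.08 ± 0.14 in antral granulosa (adjusted p = 3.59e-05). PRDX1 rose by 0.96 ± 0.19 (adjusted p = 0.00154) and 0.94 ± 0.19 (adjusted p = 0.00153). SOD2, the mitochondrial superoxide dismutase, rose by 1.45 ± 0.41 in membrane granulosa (adjusted p = 0.0175), a call lost without cow D or cow G and with only the arrays compared. In antral granulosa PRDX4, a peroxiredoxin of the secretory pathway, fell by 0.56 (adjusted p = 0.0154), a call lost without cow B or cow F.

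**Figure D4:**
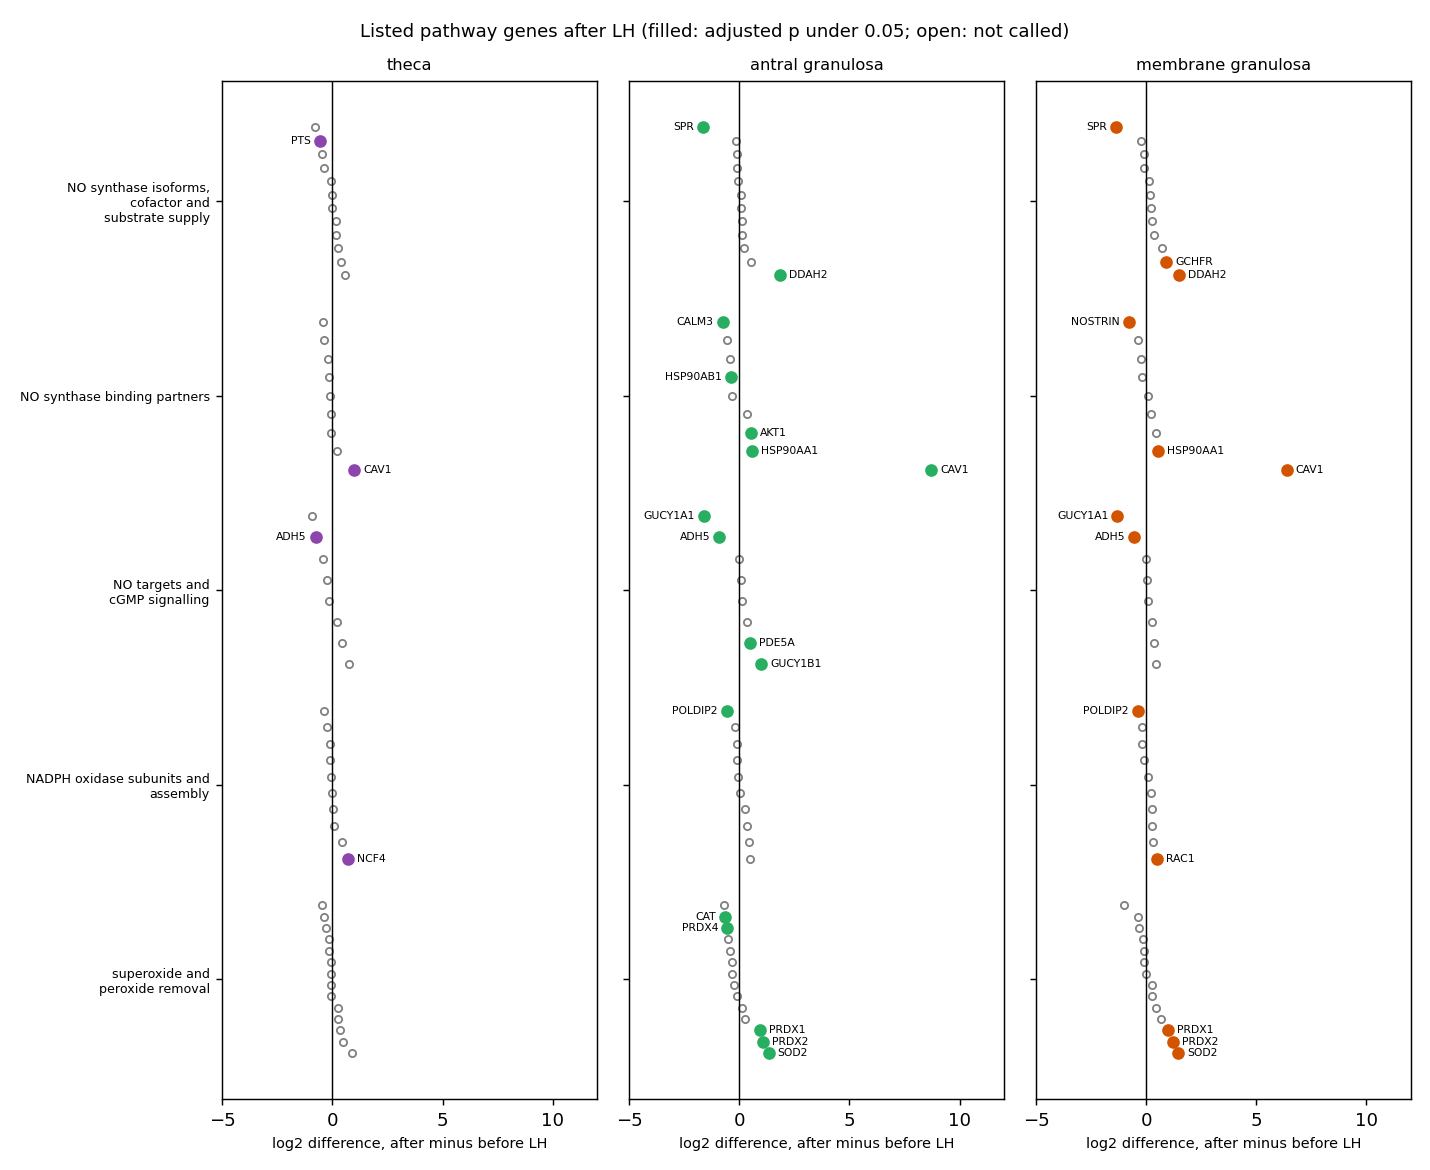
Log2 difference after minus before LH of the 53 measured genes of the 5 lists, in theca, antral granulosa and membrane granulosa; filled points are called at an adjusted p under 0.05 and named, open points are not. Called genes number 4 in theca, 17 in antral granulosa and 13 in membrane granulosa, with CAV1 far to the right in both granulosa panels (fitted values, a lower bound of 8.05 in antral granulosa).

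Against membrane granulosa, many of the listed genes were higher in theca. Before LH, 25 of 53 (47.2%) were called higher and 5 (9.43%) lower, against 21.1% and 19.3% of all genes, with a median of 0.43 over the 53 and -0.02 over all genes. Without cow G 19 were called in all, against 30 with every cow. After LH 12 (22.6%) were higher and 7 (13.2%) lower, against 15.7% and 15.7% of all genes, and 9 were called in all without cow A and 8 without cow B, against 19 with every cow. Markers of vessels and leukocytes were higher in theca too. Of 13 endothelial markers 11 were called higher after LH and 12 before LH, and of 16 leukocyte markers 5 after LH and 8 before LH. Their part in the theca levels was not tested.

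Of the supply genes, ASS1, which makes the arginine precursor argininosuccinate out of citrulline, was higher in theca than in membrane granulosa at both times. It averaged 7.87 in theca and 5.78 in membrane granulosa after LH (2.10 ± 0.23 SE, adjusted p = 9.92e-05 by limma), and 7.92 in theca and 5.06 in membrane granulosa before LH (2.87 ± 0.23, adjusted p = 4.55e-06). PCBD1, which recycles tetrahydrobiopterin, was higher by 1.94 ± 0.22 (adjusted p = 3.32e-05) and PTS by 1.01 ± 0.11 (adjusted p = 3.45e-05) before LH. CAV1 was lower in theca after LH (-0.94 ± 0.20, adjusted p = 0.00424) and higher before LH (4.46 ± 0.20, adjusted p = 2.13e-07), and NOSTRIN was lower at both times (-0.77 ± 0.16, adjusted p = 0.00411 after LH, and -1.50 ± 0.16, adjusted p = 2.54e-05 before LH). After LH the CAV1 call was lost without cow B and the NOSTRIN call without cow A.

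Of the oxidase genes, 1 of 10 was higher in theca after LH and 5 before LH, and none was lower by limma at either time. Over all genes 15.7% were called higher and 15.7% lower after LH, and 21.1% and 19.3% before LH. NCF4 was higher by 1.15 ± 0.15 (SE) after LH (adjusted p = 0.000288) and by 0.68 ± 0.15 before LH (adjusted p = 0.00412). RAC2, the GTPase of blood cells, was higher by 1.32 ± 0.31 before LH (adjusted p = 0.00534) and RAC1 by 0.57 ± 0.15 (adjusted p = 0.0118), the RAC1 call being lost without cow F or cow G. Of the removal genes 3 were higher and 4 lower after LH, and 7 higher and 2 lower before LH. PRDX6 was higher by 1.48 ± 0.15 (adjusted p = 1.50e-05) and CCS, the copper chaperone of SOD1, by 1.07 ± 0.12 before LH (adjusted p = 3.00e-05), while GPX3, a secreted glutathione peroxidase, was lower (-2.09 ± 0.29, adjusted p = 0.000159).

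Antral and membrane granulosa differed in few of the 53. Before LH none was called higher and 2 lower by limma, CAV1 and GPX3, against 1.05% and 1.53% of all genes, and 10 had an unadjusted p under 0.05. On its brightest probe set CAV1 was under the limit in antral granulosa and averaged 6.23 in membrane granulosa there. Its other probe set had a fitted difference of -0.09, and its level in these groups is not given here. The GPX3 difference was -1.29 ± 0.29 (SE, adjusted p = 0.0465), a call lost under 9 of 12 alternatives. After LH none was called higher and 1 lower, ASS1 (-0.95 ± 0.23, adjusted p = 0.0459, lost under 6 of 12 alternatives, with 2 of 3 antral arrays above the limit), against 1.16% and 2.25%, with 11 at an unadjusted p under 0.05. For the LH difference of antral minus that of membrane granulosa limma called 0 of the 53, against 0% of all genes in each direction, and 5 of the 53 had an unadjusted p under 0.05.

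**Figure D5:**
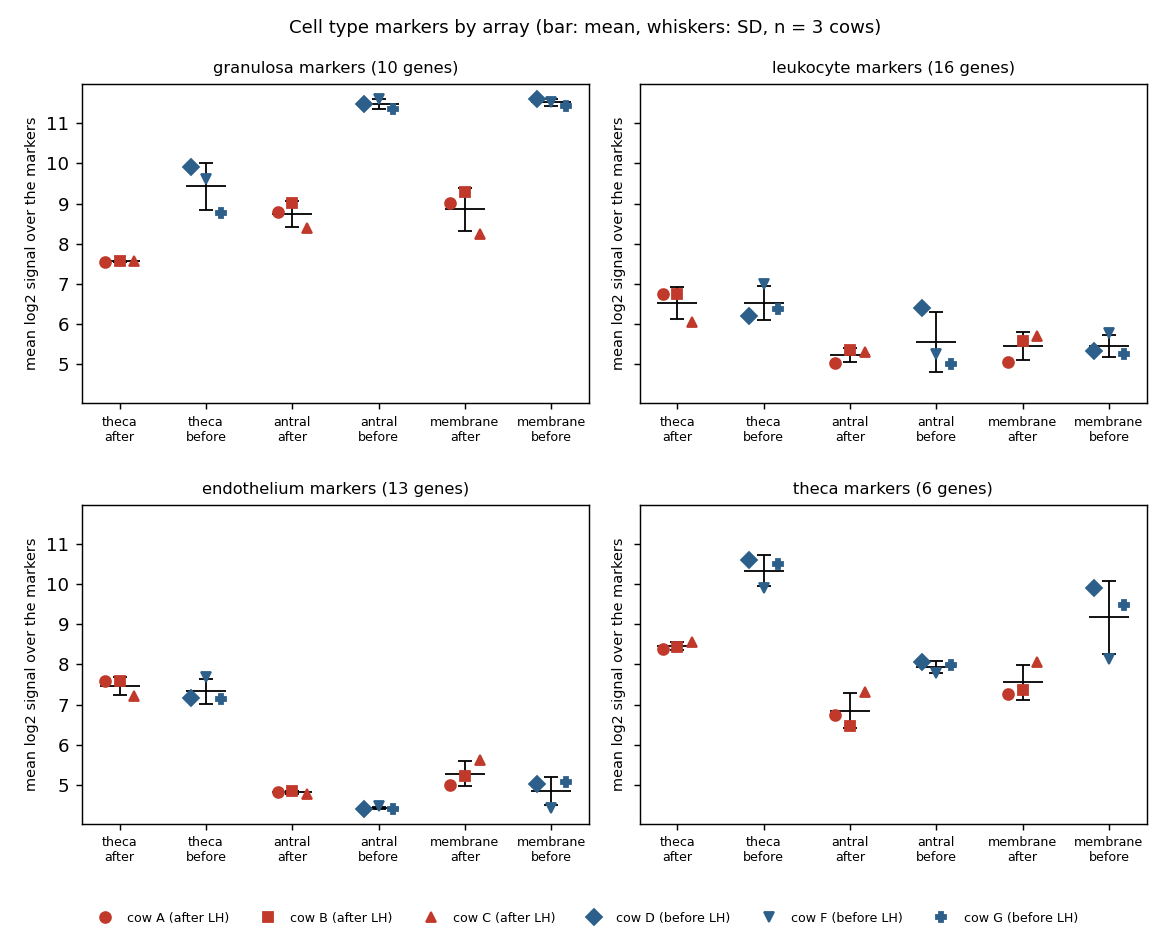
Mean log2 signal over the granulosa, leukocyte, endothelium and theca markers on each array, by population and time (symbols: cows, bars: mean, whiskers: SD, n = 3). Granulosa markers are 11.36 to 11.61 in both granulosa populations before LH, and endothelium markers are above 7 in theca and below 6 in granulosa.

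The labelled populations were checked on these markers. All 10 granulosa markers were above the limit on every membrane granulosa array before LH, and 9 of 10 on every antral array before LH. Theca before LH had the highest means over the 6 theca markers measured, 9.90 to 10.61, and membrane granulosa before LH reached 8.14 to 9.90, led by cow D. After LH the theca markers were at 8.38 to 8.56 in theca, 6.47 to 7.33 in antral granulosa and 7.26 to 8.06 in membrane granulosa. The mean over the 5 red cell markers measured lay between 4.01 and 4.53 on all arrays.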

How the data were processed

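RNA of theca, antral and membrane granulosa of 6 follicles was measured on 18 one-colour Affymetrix arrays. Trizol extraction and biotin labelling by 3' in vitro transcription were used, per the labels' protocols. Per the submitters' processing notes the authors ran RMA in Partek 6.5, which gave the deposited log2 signal of each probe set. RMA shares scaling and probe effects between arrays, so a change common to all probe sets would not show. Its settings and any genome build are not given in the sources used here, and the files hold no detection calls.

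Of 24128 entries, 112 control probe sets were left out. In the platform annotation 13292 of the 24016 tested carry 1 gene symbol, 86 several and 10638 none. They stand for 9155 genes, each read at its probe set of highest mean. The annotation can be old, and all 4 genes described here match the RefSeq table by gene ID.

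Contrasts were fitted by lmFit and eBayes of limma 3.58.1 (R 4.3.3), with p adjusted by Benjamini-Hochberg over all 24016 probe sets and a threshold of 0.05. LH differences compare different cows, with a mean per group and no block. Differences between populations, and between LH differences, take cow as a fixed block. This pairing comes from the cow named in the labels. Once group means were removed, the correlation between 2 arrays of a cow was -0.017 to 0.690, and over 0.1 in 17 of 18 pairs. On simulated data with 24016 probe sets, log2 changes of 2 were found in 86% and of 1 in 68% for the LH difference in theca. A change of 1 was found in 50% for antral minus membrane granulosa before LH and 68% after LH. For the difference between LH differences it was found in 28% for theca minus membrane and 30% for antral minus membrane granulosa. Each contrast was simulated once, with 200 probe sets changed in all and several sizes of change among them. These shares are therefore rough, and those of contrasts of like design cannot be ranked. The number of changed probe sets in the data may differ, which would move them.

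The 4 genes, the gene lists and the markers were chosen with earlier results of these data known, and no list was tested as a set. Named are all probe sets of the 4 genes, the 5 genes most like NOS2 and CYBB, and up to 3 called genes of a list and contrast by smallest adjusted p, beside genes that say which partner or marker is measured. A repeated alias was counted once. Figures were drawn with matplotlib 3.10.9, with tables made in Python 3.11.15, numpy 2.4.6 and pandas 2.3.3.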

Additional observations from a re-analysis of the deposited data

Results flagged for a closer look

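For NOS2, CYBB and CYBA the LH difference in theca departed from that in membrane granulosa in the fit within cows. As these genes were chosen with the granulosa changes known, the sizes are descriptions. Theca minus membrane granulosa in LH difference was 3.19 for NOS2 on Bt.8479.1.A1_at and 1.53 on Bt.23126.1.S1_at. It was 3.07 for CYBB on Bt.4558.1.S1_at and 3.26 on Bt.22430.1.A1_at. For CYBA on Bt.4140.1.S1_at it was -1.23. In membrane granulosa NOS2 and CYBB were lower and CYBA higher after LH, and for each the theca difference lay nearer to 0.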

How the results depend on the processing

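Of 63 results under up to 13 settings (756 values), 715 kept their direction and their side of the threshold or moved by less than the spread between cows, 40 moved and 1 gained a call. All 648 values for the 4 genes kept their sign or were not called, a count that does not show lost calls. Settings fell on both sides of the threshold for CYBA after LH in both granulosa populations, among others. The same held for the LH difference of theca minus membrane granulosa in CYBA and in NOS2 on Bt.23126.1.S1_at. It held too for theca minus membrane granulosa after LH in CYBB, on both probe sets. The count of listed genes called was 2 in theca with only the arrays compared (4 otherwise). For antral minus membrane granulosa before LH it was 1 under quantile normalization, median centring, only the arrays compared and no replicate block (2 otherwise). After LH it was 4 with only the arrays compared and 0 with no replicate block (1 otherwise). For the LH difference of antral minus membrane granulosa it was 1 under quantile normalization, without dim probe sets, with only the arrays compared and with trend and robust moderation (0 otherwise).

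With each cow left out in turn, the count of listed genes called after LH was 8 to 12 in membrane granulosa and 0 to 3 in theca. It was 8 to 20 after LH and 19 to 30 before LH for theca minus membrane granulosa, and 0 to 1 after LH and 1 to 2 before LH for antral minus membrane granulosa. For LH differences it was 3 to 7 for theca minus membrane granulosa and 0 to 1 for antral minus membrane granulosa. Theca minus membrane granulosa after LH ranged from -0.56 to 0.81 for NOS2 on Bt.8479.1.A1_at and 0.61 to 1.06 for CYBB on Bt.4558.1.S1_at. Before LH it was -1.55 to -1.26 for NOS2 on Bt.23126.1.S1_at, and antral minus membrane granulosa was -1.17 to -0.63 for CYBB on Bt.4558.1.S1_at. The LH difference of theca minus membrane granulosa was 2.64 to 4.01 and 1.34 to 1.65 for these NOS2 probe sets and 2.71 to 3.77 for CYBB on Bt.22430.1.A1_at, and that of antral minus membrane granulosa was -0.10 to 0.59 for NOS2 on Bt.23126.1.S1_at. The cause of these shifts was not tested, beyond fewer arrays entering each fit.

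Replicate numbers name different cows after and before LH, and such pairs correlated at -0.169 to 0.228. With the replicate block the NOS2 difference in theca was -2.40 with an adjusted p of 0.00270 by limma, and no call of the 4 genes changed. The files give no measure of signal over background, and 3 cows per group limit the precision.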
